A study of Mus musculus with 4 samples.

Results

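The genes of the unfolded protein response and of the integrated stress response were followed in primary mouse embryonic fibroblasts after knockdown of Xpo5 with a small interfering RNA (siRNA). Xpo5 encodes Exportin-5, which carries microRNA precursors out of the nucleus. The set was a named list of 41 genes, found by gene name among the 41174 probes of a 1-colour Agilent array. All 41 were measured well above background on all 4 arrays, and they stand beside 13913 genes tested in all. They were read in 5 roles: 7 sensors and transcription factors, 3 feedback genes and effectors, 10 amino acid and one-carbon genes, 14 chaperones and folding enzymes, and 7 genes of ER-associated degradation.

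The cells were wild type and of strain C57BL/6. One group received a negative control siRNA and the other an Exportin-5 siRNA, each at 60 nM for 12 h. All cells were then kept in 0.2% serum for 48 h, a level at which fibroblasts stop dividing, and in 20% serum for 24 h together with a second dose of the same siRNA. Each group held 2 samples, and the study was made as 2 independent experiments, so the comparison is 2 arrays against 2 of cells that had been refed. The labels name no drug that stresses the endoplasmic reticulum (ER), so the levels are those of refed cells after transfection.

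Proteins that fold badly in the ER engage 3 membrane sensors: PERK (gene Eif2ak3), IRE1 (Ern1) and ATF6. PERK and the other kinases of the integrated stress response phosphorylate the initiation factor eIF2, which lowers translation in general but favours translation of ATF4, a factor that turns on genes of amino acid uptake and synthesis. IRE1 splices the messenger RNA of Xbp1, and cleaved ATF6 and spliced XBP1 turn on ER chaperones and the degradation machinery, so the 2 sets of target genes can be read apart. Much of this signalling acts through phosphorylation, cleavage, splicing and translation, which these arrays did not measure.

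Xpo5 was low in the cells that received its siRNA. Levels are given here as log2 signal minus that of the array's 75th percentile. The log2 level of Xpo5 was 1.31 and 1.26 with control siRNA, against -1.95 and -1.93 with Xpo5 siRNA. This left 10.7% of the control signal (limma adjusted p = 0.0106). These values are from the brightest of 4 probes of Xpo5, and the mean of its 3 probes well above background showed a smaller fall. The 14 fibroblast markers were above background on all 4 arrays. Of 10 endothelial markers 6 were above it on all 4 arrays, and Pecam1, Cdh5, Tie1 and Cldn5 were above it on none. Among the 6, Kdr, Vwf, Tek and Esam had log2 differences of 1.19, 0.73, 0.63 and 0.18, and Egfl7 and Emcn had -0.01 and -0.34. Of 10 epithelial markers 5 were above it on all 4 arrays, all of them keratins, and Epcam, Cdh1 and Ocln were above it on none. The keratins went both ways, with Krt5 at -0.92, Krt8 at -0.62, Krt18 at -0.01, Krt14 at 0.19 and Krt19 at 0.33. The summed signal, in units of the 75th percentile, was 2.04 to 2.23 with control siRNA and 2.27 to 2.32 with Xpo5 siRNA for the endothelial list, and 7.96 to 9.0 against 8.90 to 9.24 for the epithelial list. All 16 macrophage markers were above background on all 4 arrays. Their summed signal was 61.9 and 44.2 with control siRNA, against 87.4 and 74.5 with Xpo5 siRNA, and the median log2 difference of the 15 that could be tested was 0.66. Of all these markers limma called 0 without the replicate block; with it, 5 macrophage markers and Kdr were called, all higher with Xpo5 siRNA. The part of these other cell types in the values of the stress genes was not tested, and in RNA of a whole culture more cells of a type and more RNA per cell cannot be told apart.

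No stress response gene passed the test between the siRNAs. With Benjamini-Hochberg adjustment over all genes, limma called 3 genes, 0.0216% of those tested, and 0 of the 41 members. A fit with the replicate number as a block called 606 genes, 4.36% of those tested, of which 415 were higher and 191 lower with Xpo5 siRNA, and again 0 of the 41. The smallest adjusted p among the members was 0.297 without the block, for Creld2, and 0.0838 with it, for Slc7a11. At an unadjusted p under 0.05, 0 members were higher and 1 was lower in the first fit, where 8.87% of all genes were higher and 5.79% lower. In the fit with the block 1 member was higher, Atf6, and 3 were lower, Creld2, Slc3a2 and Slc7a11, together 4 of 41, where 28.6% of all genes passed in either direction.

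The member differences were small and went both ways. The log2 difference, Xpo5 siRNA minus control siRNA, was positive for 20 members and negative for 21, and ranged from -0.47 for Slc7a11 to 0.35 for Atf6. Normexp background correction with an offset of 50 turned the differences of Ddit3, Atf4, Xbp1, Dnajc3 and Manf to negative and that of Atf3 to positive. In that fit Xpo5 itself had a limma adjusted p of 0.595. When spots with uneven background were left out of the correction, Ddit3, Xbp1, Dnajc3 and Manf were positive again and Atf3 negative again, while Atf4 stayed negative. The median size of the difference was 0.10 among the members and 0.18 among all genes. The arrays of the 2 groups did not overlap for 8 members on the high side and for 5 on the low side, against 24.7% and 22.9% of all genes, or 19.5% and 12.2% of the members.

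The intervals give the range of each difference in the fit without the block, under the background and scaling used here. They rest on the spread of these arrays and do not cover other processing choices. The 95% interval of the difference lay within a 2-fold change either way for 37 of the 41 members, or 90.2%, and for 84.4% of all genes. The exceptions were Ppp1r15a, Slc7a5, Slc7a11 and Derl3. It lay within 1.5-fold for 20 members, or 48.8%, against 44.3% of all genes, so that for the other 21 a change of 1.5-fold lay inside the interval.

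**Figure D1:**
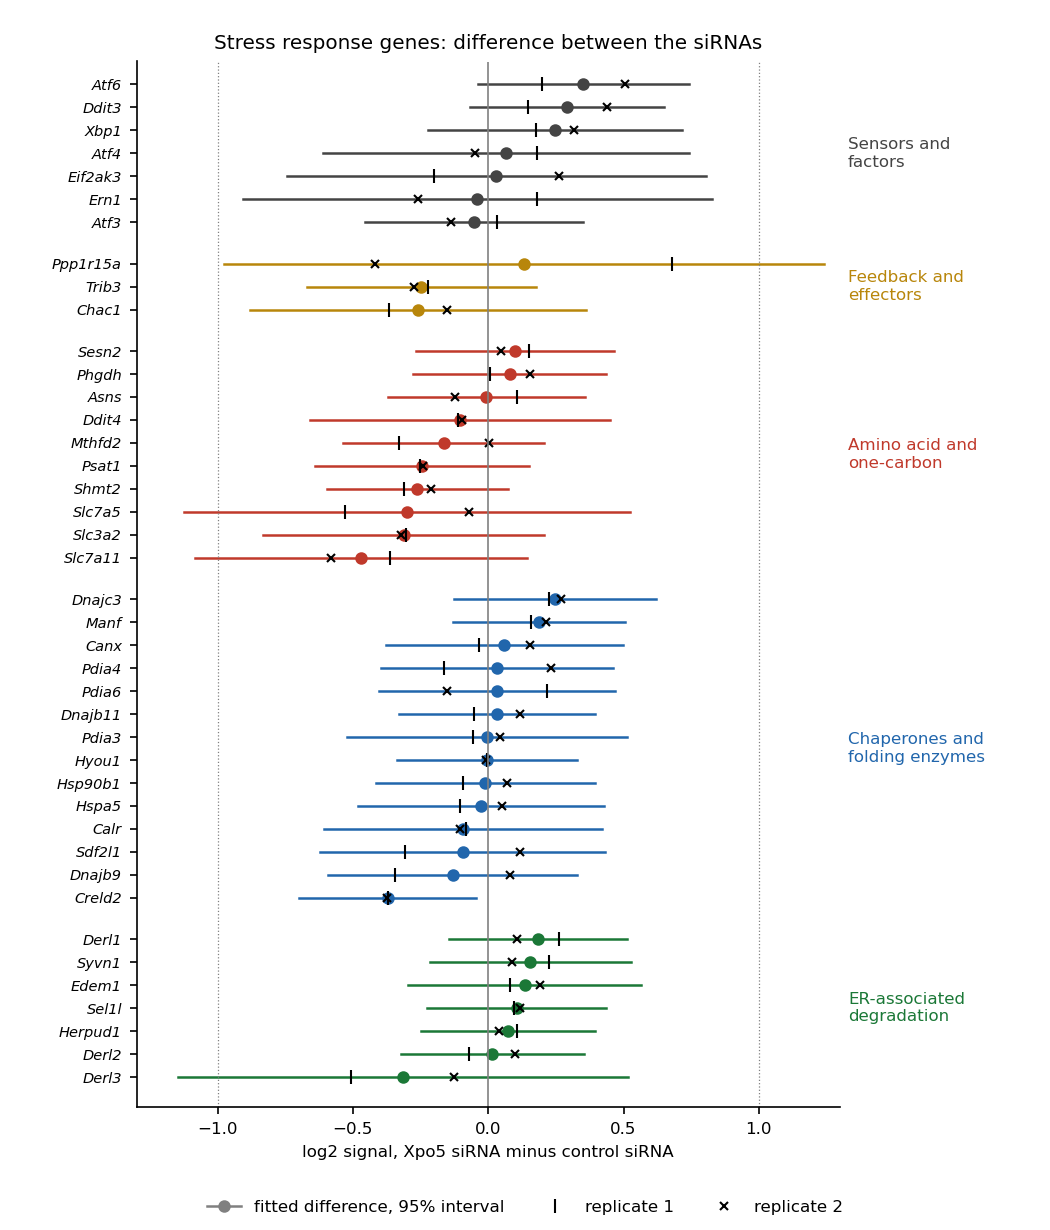
Log2 difference of each of the 41 genes, Xpo5 siRNA minus control siRNA, with the limma estimate and its 95% interval (circle and line) and the difference within replicate 1 (bar) and replicate 2 (cross); the dotted lines mark a 2-fold change. Of the 41 intervals, 37 lie inside the dotted lines, and the interval of Creld2, from -0.70 to -0.04, is the one that leaves out 0.

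Among the sensors and transcription factors, Atf6, Ddit3 and Xbp1 had the largest positive differences and none passed. Atf6, the membrane-bound factor that is cut to its active form under ER stress, had log2 levels of 0.68 and 0.66 with control siRNA and of 0.88 and 1.16 with Xpo5 siRNA. Both Xpo5 siRNA arrays were above both control arrays. Its log2 difference was 0.35 ± 0.15 (SE, n = 2 arrays per group), a signal 128% of control, with a 95% interval from -0.04 to 0.74 and a limma adjusted p of 0.378. The probe of Atf6 lies on chromosome 1 at 172637679-172637738 of mm9, and a second probe of the gene gave a log2 difference of 0.12.

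Ddit3 encodes CHOP, a factor downstream of ATF4 that is linked to cell death under lasting stress. Its log2 levels were 1.15 and 1.01 with control siRNA, against 1.29 and 1.45 with Xpo5 siRNA, without overlap. The log2 difference was 0.29 ± 0.14 (SE, n = 2 per group), 0.15 in replicate 1 and 0.44 in replicate 2, with a limma adjusted p of 0.414. The Ddit3 probe lies on chromosome 10 at 126732518-126732821 of mm9.

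Xbp1 showed a positive log2 difference in both replicates, but its groups overlapped. The log2 levels were 1.29 and 1.52 with control siRNA against 1.47 and 1.83 with Xpo5 siRNA, a difference of 0.25 ± 0.18 (SE, n = 2 per group, limma adjusted p = 0.579). The gap between the replicates within a siRNA, 0.22 and 0.36, was about as large as the difference between the siRNAs. Its single probe does not tell spliced from unspliced Xbp1 messenger RNA.

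Atf4, the factor at the centre of the integrated stress response, differed more between replicates than between siRNAs. The log2 levels of Atf4 were 2.63 and 3.26 with control siRNA, against 2.81 and 3.21 with Xpo5 siRNA, so both replicate 2 arrays were above both replicate 1 arrays. The log2 difference between the siRNAs was 0.07 ± 0.26 (SE, n = 2 per group), with a 95% interval from -0.61 to 0.74 and a limma adjusted p of 0.927. Its sign turned, to -0.25, when control replicate 1 was left out. ATF4 is governed mainly by translation, so its messenger RNA is only part of its regulation.

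Atf3, a stress-induced factor downstream of ATF4, was at log2 levels of -0.82 and -0.94 with control siRNA and of -0.79 and -1.08 with Xpo5 siRNA. The groups overlapped, and the log2 difference was -0.05 ± 0.16 (SE, n = 2 per group, limma adjusted p = 0.898). The kinases Eif2ak3 and Ern1 had log2 differences of 0.03 and -0.04, with 95% intervals from -0.74 to 0.80 and from -0.91 to 0.83. For both, the sign was opposite in the 2 replicates. Over the 7 sensors and factors, the median log2 difference was 0.07, beside 0.01 over all genes.

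The feedback genes and effectors lie downstream of ATF4 and CHOP. Trib3, a pseudokinase that restrains ATF4 and CHOP, had log2 levels of 2.24 and 2.02 with control siRNA and of 2.01 and 1.74 with Xpo5 siRNA. Both Xpo5 siRNA arrays were below both control arrays, though the closest pair nearly touched. The log2 difference was -0.25 ± 0.16 (SE, n = 2 per group, limma adjusted p = 0.539), and a second, dimmer probe of Trib3 gave 0.12, of opposite sign.

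Chac1, an enzyme that breaks down glutathione, had log2 levels of 3.69 and 3.13 with control siRNA against 3.32 and 2.98 with Xpo5 siRNA. The groups overlapped, and the log2 difference of -0.26 ± 0.24 (SE, n = 2 per group, limma adjusted p = 0.658) was smaller than the gaps between replicates, -0.56 and -0.35. The sign turned, to 0.02, when control replicate 1 was left out.

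Ppp1r15a encodes GADD34, which brings a phosphatase to eIF2 and so restores translation, and it had the largest standard error of the 41. It was at log2 levels of -0.99 and 0.30 with control siRNA and of -0.31 and -0.11 with Xpo5 siRNA. The log2 difference was 0.68 in replicate 1 and -0.42 in replicate 2. The fitted value, 0.13 ± 0.43 (SE, n = 2 per group), had a 95% interval from -0.98 to 1.24, which holds a 2-fold rise.

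The amino acid and one-carbon genes are the metabolic targets of ATF4. Of the 10, 8 had a negative and 2 a positive log2 difference, 3 did not overlap on the low side and 0 on the high side (22.9% and 24.7% of all genes), and 0 were called. Their median log2 difference was -0.20, beside 0.01 over all genes. It was -0.28 in replicate 1 and -0.11 in replicate 2, but 0.01 on slide 1 and -0.40 on slide 2, and -0.036 when control replicate 1 was left out. Each slide held 1 array of each siRNA with different replicate numbers, and the part of slide and replicate in this median was not tested.

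Slc7a11, the light chain of the cystine and glutamate exchanger that supplies cysteine for glutathione, had the most negative difference of the 41. Its log2 levels were -2.31 and -2.65 with control siRNA, against -2.67 and -3.23 with Xpo5 siRNA. The groups did not overlap, although -2.65 and -2.67 were nearly equal. The log2 difference was -0.47 ± 0.24 (SE, n = 2 per group), a signal 72.1% of control, with a 95% interval from -1.08 to 0.14. The limma adjusted p was 0.438, and 0.0838 with the replicate block. Its probe lies on chromosome 3 at 50176047-50176106 of mm9. The other 3 probes of Slc7a11, all dimmer, gave log2 differences of -0.87, -0.00 and 0.15. The difference was -0.19 when Xpo5 siRNA replicate 2 was left out, and it turned to 0.76 under normexp with an offset of 50. It was negative again when spots with uneven background were left out of that correction.

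Slc3a2 encodes the heavy chain that carries Slc7a11 and Slc7a5 to the cell surface. Its log2 levels were 5.33 and 4.98 with control siRNA, against 5.02 and 4.65 with Xpo5 siRNA. The difference was -0.31 in replicate 1 and -0.32 in replicate 2, yet control replicate 2 lay below Xpo5 siRNA replicate 1, so the groups overlapped. The fitted log2 difference was -0.31 ± 0.20 (SE, n = 2 per group, limma adjusted p = 0.528). A second, dimmer probe gave 0.02. Slc7a5, the light chain of the exchanger for large neutral amino acids, had a log2 difference of -0.30, which was -0.53 in replicate 1 and -0.07 in replicate 2.

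Serine and one-carbon enzymes had differences of both signs. Psat1, the transaminase of serine synthesis, had log2 levels of 4.18 and 3.97 with control siRNA and of 3.93 and 3.73 with Xpo5 siRNA, without overlap, and a log2 difference of -0.25 ± 0.15 (SE, n = 2 per group, limma adjusted p = 0.517). Shmt2, the mitochondrial enzyme that takes a one-carbon unit from serine, was at 3.66 and 3.53 with control siRNA and at 3.35 and 3.32 with Xpo5 siRNA, again without overlap, with a log2 difference of -0.26 ± 0.13 (SE, n = 2 per group, limma adjusted p = 0.430). Phgdh, which catalyses the first step of serine synthesis, had a log2 difference of 0.08, and 3 of 3 of its probes gave a positive value. Mthfd2, the mitochondrial folate enzyme that follows Shmt2, had -0.16.

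Asns, asparagine synthetase and a textbook ATF4 target, was nearly the same in both groups. It was at log2 levels of 5.91 and 5.91 with control siRNA and of 6.01 and 5.79 with Xpo5 siRNA, a log2 difference of -0.01 ± 0.14 (SE, n = 2 per group, limma adjusted p = 0.988) with a 95% interval from -0.37 to 0.36. Both control arrays lay between the Xpo5 siRNA arrays. Sesn2 and Ddit4, which both restrain the growth kinase complex mTORC1, had log2 differences of 0.10 and -0.10. A second probe of Sesn2 gave -0.24.

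**Figure D2:**
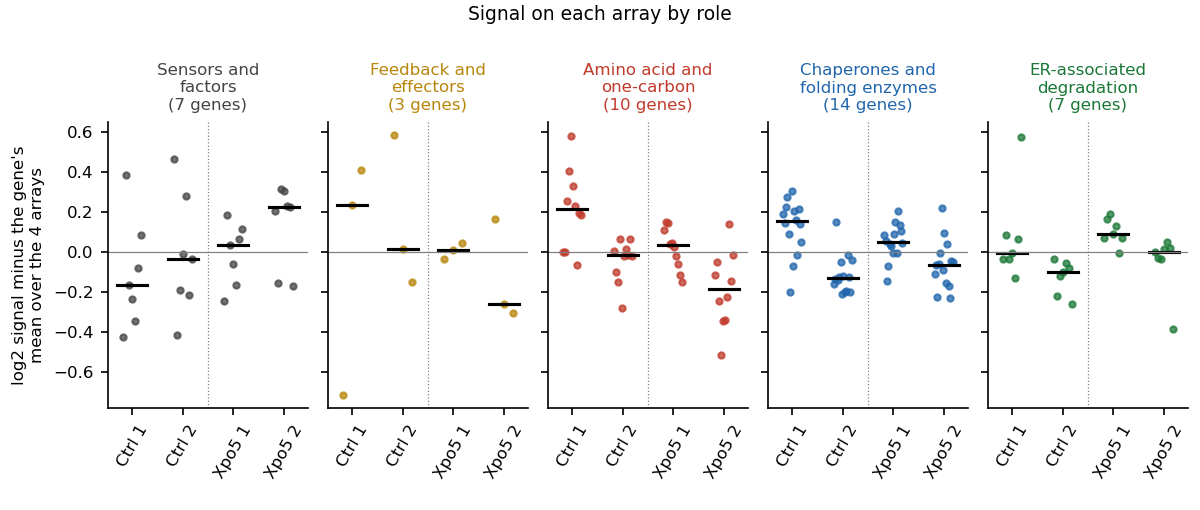
Log2 signal of each gene on each array minus its own mean over the 4 arrays, in 1 panel for each of the 5 roles; each point is a gene and each bar the median of the panel's genes on that array (Ctrl, control siRNA; Xpo5, Xpo5 siRNA; 1 and 2, replicate). The median of the 14 chaperones was 0.15 on control replicate 1 and -0.13 on control replicate 2, with the Xpo5 siRNA arrays between them at 0.05 and -0.06.

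Chaperones and folding enzymes were at nearly the same level in both groups. Of the 14, 6 had a positive and 8 a negative log2 difference, 9 had opposite signs in the 2 replicates, and 0 were called. The median log2 difference was -0.01, with -0.07 in replicate 1 and 0.08 in replicate 2. The gap between replicates was larger: replicate 2 minus replicate 1 had a median of -0.31 with control siRNA, with 12 of 14 genes lower in replicate 2, and of -0.09 with Xpo5 siRNA, with 10 of 14 lower. Over all genes these medians were -0.08 and -0.05. The median difference between the siRNAs was 0.14 when control replicate 1 was left out and -0.15 when control replicate 2 was left out. Its sign also differed between leaving out the one and the other Xpo5 siRNA array, so it rests on which arrays are used.

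Hspa5, the main chaperone of the ER lumen, known as BiP, was at log2 levels of 6.52 and 6.17 with control siRNA and of 6.41 and 6.22 with Xpo5 siRNA. Both Xpo5 siRNA arrays lay between the control arrays. The log2 difference was -0.03 ± 0.18 (SE, n = 2 per group), a signal 98.1% of control, with a 95% interval from -0.48 to 0.43 and a limma adjusted p of 0.957. The Hspa5 probe lies on chromosome 2 at 34631630-34631689 of mm9. Hsp90b1, the ER member of the HSP90 family, Pdia3, a disulfide isomerase, and Hyou1, a large HSP70-like exchange factor, each had a log2 difference of -0.01, although a second probe of Hsp90b1 gave 0.26.

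The lectin chaperones Calr and Canx, which hold newly made glycoproteins, had log2 differences of -0.09 and 0.06. The disulfide isomerases Pdia4 and Pdia6 and the HSP40 co-chaperone Dnajb11 each had 0.03, and Sdf2l1, an ER luminal partner of Dnajb11, had -0.09. Dimmer probes of Pdia6 gave 0.44, 0.07 and -0.03. Dnajb9, an HSP40 co-chaperone and a sensitive target of XBP1, was at log2 levels of 1.78 and 1.36 with control siRNA and of 1.43 and 1.45 with Xpo5 siRNA. Its groups overlapped, and the log2 difference was -0.13 ± 0.18 (SE, n = 2 per group, limma adjusted p = 0.766). The other, dimmer probes of Dnajb9 gave -0.23 and -0.36, each negative in both replicates.

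Creld2, an ER-resident protein with disulfide isomerase activity that is induced by ER stress, had the smallest p of the 41. Its log2 levels were 5.38 and 5.31 with control siRNA, against 5.02 and 4.94 with Xpo5 siRNA. The groups were clearly apart, and the log2 difference was -0.37 in each replicate, with replicate gaps of -0.07 and -0.08. The fitted difference was -0.37 ± 0.13 (SE, n = 2 per group), a signal 77.3% of control, with a 95% interval from -0.70 to -0.04. The unadjusted limma p was 0.0333, and the adjusted p was 0.297, or 0.101 with the replicate block, so the gene did not pass. The Creld2 probe, the only one of the gene, lies on chromosome 15 at 88656997-88657056 of mm9.

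Dnajc3 and Manf went the other way from Creld2. Dnajc3 encodes p58IPK, a luminal co-chaperone of BiP, and had log2 levels of 2.87 and 3.02 with control siRNA and of 3.09 and 3.28 with Xpo5 siRNA. The groups did not overlap, and the log2 difference was 0.25 ± 0.14 (SE, n = 2 per group, limma adjusted p = 0.493); all 4 probes of the gene gave a positive difference, from 0.05 to 0.30. Manf, an ER-resident protein that is also secreted, was at 3.90 and 3.85 with control siRNA and at 4.06 and 4.07 with Xpo5 siRNA, also without overlap. Its log2 difference was 0.19 ± 0.12 (SE, n = 2 per group, limma adjusted p = 0.539).

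The degradation genes take misfolded proteins out of the ER to the proteasome. Of the 7, 6 had a positive and 1 a negative log2 difference, 4 did not overlap on the high side and 0 on the low side (24.7% and 22.9% of all genes), and 0 were called. Their median log2 difference was 0.10, with 0.09 in replicate 1 and 0.10 in replicate 2, beside 0.01 over all genes. On slide 1 it was 0.19 and on slide 2 0.00072. Scaling each array to its median, which moved the median of all genes to -0.10, gave -0.00089 for the degradation genes. Normexp background correction with an offset of 50 gave -1.08, beside -0.16 over all genes, and turned the sign of Derl1, Syvn1 and Sel1l to negative and that of Derl3 to positive. With uneven-background spots left out of that correction, Derl1, Syvn1 and Sel1l were positive again and Derl3 negative again.

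Syvn1, the ubiquitin ligase HRD1, had log2 levels of 4.87 and 4.78 with control siRNA and of 5.09 and 4.87 with Xpo5 siRNA, and a log2 difference of 0.16 ± 0.14 (SE, n = 2 per group, limma adjusted p = 0.657). Sel1l, the partner that holds HRD1 in place, was at 1.06 and 0.96 with control siRNA and at 1.15 and 1.07 with Xpo5 siRNA, a log2 difference of 0.10 ± 0.13 (SE, n = 2 per group, limma adjusted p = 0.740). Neither gene's groups overlapped, but the closest arrays of the opposite groups nearly touched. Dimmer probes of Sel1l gave 0.26 and -0.05. A dimmer probe of Syvn1 gave 0.64, with 1.32 in replicate 1 and -0.03 in replicate 2.

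Derl1, a membrane protein of the exit channel, had log2 levels of 3.28 and 3.36 with control siRNA and of 3.54 and 3.46 with Xpo5 siRNA. Its log2 difference was 0.18 ± 0.13 (SE, n = 2 per group, limma adjusted p = 0.557), and all 4 probes of the gene gave a positive value, from 0.12 to 0.38. Its relative Derl3 had the opposite sign, with log2 levels of -2.19 and -3.02 with control siRNA and of -2.69 and -3.15 with Xpo5 siRNA. The groups overlapped. The log2 difference of Derl3 was -0.32 ± 0.32 (SE, n = 2 per group, limma adjusted p = 0.688), and 0.10 when control replicate 1 was left out. Derl2, the third of the family, had 0.01, Herpud1, a membrane adaptor of HRD1, had 0.07, and Edem1, which marks misfolded glycoproteins for removal, had 0.14. Dimmer probes of Edem1 gave 0.08 and 0.69, and a dimmer probe of Derl2 gave -0.10.

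Set apart as ATF4 targets and ATF6 or XBP1 targets, the amino acid and one-carbon median was below the chaperone median. The gap was -0.20 on the log2 scale, -0.21 in replicate 1 and -0.19 in replicate 2, and -0.19 on slide 1 and -0.20 on slide 2. It was -0.038 when the background was instead modelled from the local background of each spot by normexp with uneven spots left out, and lay from -0.20 to -0.17 in the other settings. The gap is a description of 10 genes against 14 that share arrays, with no test.

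**Figure D3:**
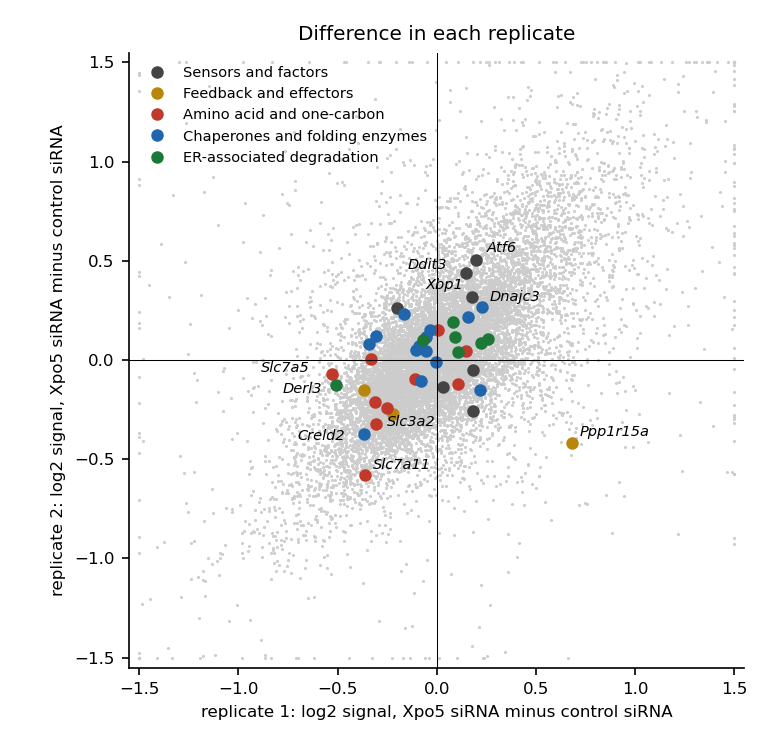
Log2 difference, Xpo5 siRNA minus control siRNA, in replicate 1 (horizontal) and in replicate 2 (vertical), for the 41 genes (coloured by role) and for all 13913 genes (grey); 162 genes beyond 1.5 in either replicate are drawn at the edge. The members lie close to the centre, with 12 positive in both replicates, 12 negative in both and 17 of opposite sign, among them Ppp1r15a at 0.68 and -0.42.

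The same sign in both replicates was seen for 58.5% of the members and for 71.9% of all genes. By role it was 35.7% of the chaperones, 42.9% of the sensors and factors and 66.7% of the 3 feedback genes and effectors. Among the amino acid and one-carbon genes it was 80.0%, and among the degradation genes 85.7%. Probes of one gene also differed: of 32 further probes for 19 members, 20 had the sign of the probe used and 12 the opposite one, and 22 lay within 0.25 of it on the log2 scale.

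The ER stress element, the recognition sequence of ATF6 and of XBP1, was looked for in the promoters of the members, since the lists group genes by the factor held to act on them. RefSeq promoters of assembly GRCm38.p6, from 250 bases before to 50 after the start, were at hand for 36 of the 41 members, as 38 promoters. The element was searched on both strands as CCAAT and CCACG with any 9 bases between them. It was present in 39 of 32851 promoters, or 0.119%, in 7 of 12 chaperones and in 2 of 6 degradation genes, and in 0 members of the other 3 roles. The windows below are shown because they hold the element next to genes whose levels were described above, from nearly equal in both groups to the lowest p. Capitals mark the fixed letters of the element, and CGTGG with ATTGG is the same element on the other strand.
Hspa5, chr2:34772013-34772055, plus strand: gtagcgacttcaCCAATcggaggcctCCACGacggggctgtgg
Hsp90b1, chr10:86705626-86705668, minus strand: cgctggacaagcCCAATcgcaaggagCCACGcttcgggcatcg
Creld2, chr15:88819508-88819550, plus strand: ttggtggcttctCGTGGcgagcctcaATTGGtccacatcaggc
Dnajc3, chr14:118937815-118937857, plus strand: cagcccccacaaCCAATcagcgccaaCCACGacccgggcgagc
Syvn1, chr19:6046520-6046562, plus strand: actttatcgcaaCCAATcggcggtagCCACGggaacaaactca
Derl3, chr10:75893230-75893272, plus strand: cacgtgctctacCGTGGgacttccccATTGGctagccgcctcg

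Genes with the element had differences of both signs. Creld2 and Dnajc3 both hold it upstream of the start and had log2 differences of -0.37 and 0.25. Over the 9 members with the element the median log2 difference was -0.01, with 4 positive and 5 negative, and over the 27 matched members without it the median was also -0.01. A related element, ATTGG and CCACG with 1 base between them, was searched after the sequences had been seen and is in 0.0365% of all promoters. It was found in Herpud1, 52 bases before the start, and in Dnajb11 just after it. The 8-letter element TGACGTGG, in 0.676% of all promoters, was in 0 members, and it shares letters with the CCACG block of the others.

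The core recognised by ATF4 with C/EBP partners, TGATGNAA on either strand, was in 3.97% of all promoters and in those of 6 members: Asns, Slc7a11, Chac1, Trib3, Atf3 and Herpud1. Slc7a11 held it at 66 and 47 bases before the start. The windows of an amino acid gene with a difference near 0, of the lowest difference and of an effector and a factor are shown, with the core in capitals and TTGCATCA as its other strand.
Asns, chr6:7693213-7693244, minus strand: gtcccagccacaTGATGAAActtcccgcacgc
Slc7a11, chr3:50443660-50443691, minus strand: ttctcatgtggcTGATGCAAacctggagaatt
Chac1, chr2:119351037-119351068, plus strand: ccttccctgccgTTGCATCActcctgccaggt
Atf3, chr1:191183424-191183455, minus strand: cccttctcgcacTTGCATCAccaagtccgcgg

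The 6 members with the ATF4 core had a median log2 difference of -0.15, from -0.47 for Slc7a11 to 0.07 for Herpud1, with 1 positive and 5 negative. Of the 5 negative, Asns at -0.01 and Atf3 at -0.05 had opposite signs in the 2 replicates. The members without the core were not summarised. None of the 6 passed the test, and the smallest limma adjusted p among them was 0.438. A match in a window of this length is a description of its letters and not of binding.

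**Figure D4:**
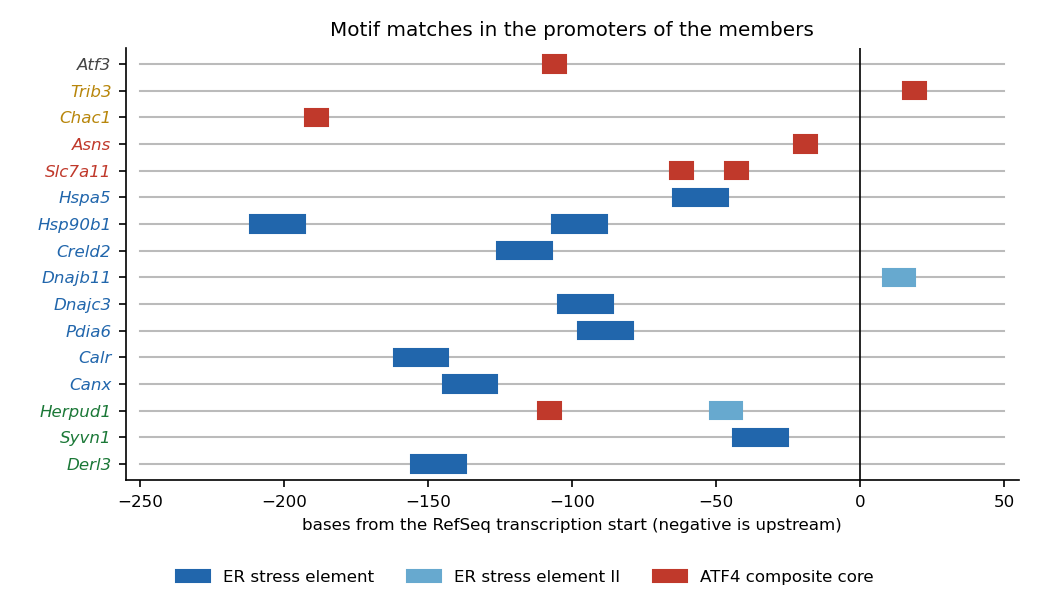
Positions of motif matches in the 16 member promoters that hold one, in bases from the RefSeq transcription start (vertical line at 0; negative is upstream), with gene names coloured by role. The ER stress element (dark blue) lies in chaperone and degradation promoters and the ATF4 core (red) in factor, effector and amino acid promoters and in that of Herpud1.

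Other genes of both pathways were read in the same way, and some had larger differences than any member. Of 27 further genes of the integrated stress response, limma called 0, 11 had a positive and 16 a negative log2 difference, and the median was -0.10. At an unadjusted p under 0.05, 1 was higher and 0 were lower, where 8.87% of all genes were higher and 5.79% lower. Slc7a3, a transporter of cationic amino acids, was at log2 levels of 0.55 and -0.02 with control siRNA and of 0.97 and 0.99 with Xpo5 siRNA. The log2 difference of Slc7a3 was 0.72 ± 0.22 (SE, n = 2 per group, limma adjusted p = 0.255), larger than that of any member. Vldlr, a lipoprotein receptor induced through ATF4, had 0.43 ± 0.20, Nupr1, a stress-induced chromatin protein, had -0.36 ± 0.14, and Eif2ak4, the kinase GCN2 that senses uncharged transfer RNA, had -0.28 ± 0.13 (SE, n = 2 per group; limma adjusted p from 0.349 to 0.410).

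Of 41 further genes of ER folding, transport and degradation, limma again called 0, 22 had a positive and 19 a negative log2 difference, and the median was 0.05. At an unadjusted p under 0.05, 3 were higher and 1 was lower, beside the same 8.87% and 5.79% of all genes. Creb3l1, which encodes OASIS, an ER-bound factor related to ATF6 that acts in cells secreting collagen, was at -1.74 and -1.34 with control siRNA and at -1.08 and -0.85 with Xpo5 siRNA. Its groups did not overlap, and the log2 difference was 0.57 ± 0.19 (SE, n = 2 per group, limma adjusted p = 0.285). Ero1b, an oxidase that drives disulfide formation, had a log2 difference of 0.46 ± 0.13, and Fkbp14, a prolyl isomerase of the ER, had 0.33 ± 0.12. Ganab, the catalytic subunit of glucosidase II that trims glycoproteins for Calr and Canx, had -0.40 ± 0.12 (SE, n = 2 per group; limma adjusted p from 0.232 to 0.329 for these 3).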

How the data were processed

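Per the labels' protocols, total RNA of the 4 samples was labelled with Cy3 for 1-colour arrays. Spot intensity in the deposited scanner files came from Agilent Feature Extraction 10.5.1.1, whose processed signal is background-subtracted and detrended, per the file headers. A further deposited table has log2 values. They equalled this signal after 1 shift for each array (99.7% to 99.8% of probes within 0.001), and all arrays then had a median of 5.33. Each array had 43379 non-control spots, with 77 to 134 outliers left out, 0 saturated, and 62.4% to 65.0% well above background. The number of arrays limits the precision.

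The log2 processed signal was averaged per probe and scaled to the 75th percentile of its array. Each gene was read from its brightest probe, if both arrays of 1 group or more had it well above background. limma 3.58.1 under R 4.3.3 (lmFit and eBayes, two-sided, no trend or block) was run on 13913 genes with Benjamini-Hochberg adjustment at 0.05. A run of the code on simulated data drew independent errors for each array. It therefore does not show how many real changes these arrays would miss. Members were matched by the files' gene names and other genes through RefSeq names; probe positions are on mm9 and promoters on GRCm38.p6. The smallest exact permutation p of 2 arrays against 2 is 0.333, so single values were not tested that way.

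The members and lists were chosen with earlier results of these data known. Members given array by array were Ddit3, Atf4, Xbp1, Hspa5, Asns and up to 4 of each role with the smallest p; of each list of other genes, up to 4 were named.

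Replicate numbers were read as the 2 experiments of the series text, although the labels do not state that pairing; same-numbered arrays deviated together at r = 0.452 over 13913 genes, which are not independent. Whether each experiment had its own embryos is not stated in the labels, so the p-values measure only the spread of these samples, which may be technical. Slide 1 held Xpo5 siRNA replicate 1 and control replicate 2, and slide 2 the others. Alternatives were other background, scaling, filter, probe and block choices, each array left out and the deposited table.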

Additional observations from a re-analysis of the deposited data

How the results depend on the processing

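None of the members was called under any of the 15 alternatives, whose smallest adjusted p among members was 0.0838, with the replicate block. For the members given array by array, 304 of 330 values under these alternatives kept their sign and 26 turned. The other members, many with differences near 0, were not counted there. The count of members at an unadjusted limma p under 0.05, 1 in the fit described first, changed under 8 of the 15 alternatives. With normexp and uneven-background spots left out it was 4, with Atf6, Ddit3 and Manf higher and Creld2 lower. The share of all genes in that fit was not counted. Normexp with an offset of 50 called 0 genes, gave medians of -1.21 (feedback genes), -1.25 (amino acid genes), -1.04 (chaperones) and -1.08 (degradation genes) and -2.08 for Xpo5 (adjusted p = 0.595), with -0.16 over all genes. It turned Ddit3 (-0.089), Atf4 (-1.20), Xbp1 (-0.49), Atf3 (0.18), Slc7a11 (0.76), Dnajc3 (-1.09), Manf (-0.98), Derl1 (-1.08), Syvn1 (-1.19), Derl3 (0.83), Sel1l (-0.41), Vldlr (-0.69) and Fkbp14 (-0.63). Non-control spots with uneven background numbered 12 and 0 on control replicates 1 and 2, and 23 and 34 on Xpo5 siRNA replicates 1 and 2. With uneven-background spots left out, the amino acid median was -0.061 and the degradation median 0.051. The gap between amino acid genes and chaperones was then -0.038, Atf4 was -0.050 and Hspa5 was 0.079. The cause was not tested. Median scaling called 8 genes and gave -0.11 for chaperones, -0.00089 for degradation genes and for Sel1l, and -0.039 for Atf4. Without a filter 0 genes were called and Xpo5, at -3.23, had an adjusted p of 0.168; more genes were then tested. The filter on all 4 arrays and the mean of the probes each called 1 gene, and the latter gave -0.063 for feedback genes and -2.55 for Xpo5. The replicate block called 606 genes and changed no call of a member or of Xpo5. Xpo5 kept its sign under all 15 alternatives but lost its call under 4 of them.

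Leaving out 1 array called 0 to 26 genes. Medians ranged from 0.091 to 0.34 (sensors and factors), -0.32 to -0.036 (amino acid genes), -0.15 to 0.14 (chaperones) and 0.039 to 0.15 (degradation genes). Xpo5 ranged from -3.25 to -3.20, with an adjusted p of 0.0629 at -3.22 without Xpo5 siRNA replicate 1. The sign turned for Atf4 (-0.25 to 0.38), Hspa5 (-0.20 to 0.15), Atf3 (-0.19 to 0.091), Asns (-0.12 to 0.10), Chac1 (-0.54 to 0.021), Ppp1r15a (-0.52 to 0.78), Dnajb9 (-0.34 to 0.075) and Derl3 (-0.73 to 0.10). The lone array of its group was assumed to vary like the others.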
